A study of Ovis aries with 9 samples.

Results

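Antisense long non-coding RNAs (lncRNAs) are transcripts longer than a small RNA, without coding potential, that lie over another gene and are read from its opposite strand. In the transcript table of cultured sheep granulosa cells (GCs), 1677 of 60784 transcripts were assembled from the reads and carry a name made of a gene symbol and -AS with a number after it. This name is taken here as the mark of the antisense class, and the study's own class may hold others. The 1677 transcripts belong to 1193 sense genes, the genes they are named after. A name such as VIM-AS1 is therefore a locus name of these files and does not say that the transcript is the ortholog of a human lncRNA of that name. Values are given as FPKM, the number of fragments divided by transcript length and by the mapped fragments of a library, so levels of different transcripts can be compared per length.

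The GCs, which line the follicle and nurse the oocyte, came from follicles of 3 to 5 mm in abattoir ovaries of thin-tailed Han ewes about 1 year old or somewhat older, and the cells of many ovaries were pooled. In culture they spent 8 h without glucose or serum and then 24 h with 0 mM glucose (CON), 8.4 mM (LOW) or 33.6 mM (HIGH), so the starvation was shared by all groups. There were 9 libraries, 3 per group. Nothing states that the libraries of a group came from separate animals, so the p-values measure the spread between these samples, which may be technical.

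By the deposited estimated counts, an FPKM of 1 stood for 48.0 to 71.3 fragments per kilobase, apart from Ensembl genes without a symbol, which hold no member. The libraries held between 1190 (CON replicate 3) and 1358 (CON replicate 1) antisense transcripts above 0. Of 10 granulosa markers 7 were listed, their sum running from 34.8 to 46.5 FPKM. A mean FPKM of 1 or more was found for 4 (NR5A2, INHA, GATA4 and INHBA). NR5A2 was at 13.5 to 20.1 and FSHR, the receptor of follicle stimulating hormone, at 0.218 to 0.564. All 9 stromal and smooth muscle markers were at 1 or more, their sum running from 4703 to 6742 FPKM. The 4 endothelial markers summed to at most 0.165 and CDH5 was at 0 in every library. Leukocyte markers summed to 14.5 to 20.8 FPKM, with 2 of 5 at a mean of 1 or more. Epithelial markers summed to 8.26 to 21.1, with 2 of 3 listed at that mean. Of 3 listed theca and steroid markers only STAR reached it, at 3.65 to 7.63. In such bulk samples fewer cells of a type and less RNA per cell cannot be told apart.

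Antisense transcription is known at many mammalian genes. An antisense RNA can recruit chromatin modifiers to the promoter it covers, pair with the sense RNA and alter its splicing or stability, or hinder the polymerase that comes from the other side. It can also be a by-product of a promoter that fires in both directions, and then rises and falls with the sense gene. The level of an antisense transcript relative to its sense gene, and whether both vary together over samples, are the measurements that bear on these modes, without telling them apart.

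Some features of the files set what the measurements can show. The library kit named by the study has no stated step that keeps strand, and the files give none, so reads where a sense and an antisense exon overlap cannot be told apart by strand. Each antisense transcript is filed under its sense gene, and for all 1193 sense genes the deposited gene FPKM equalled the sum of all transcripts of the locus within 1%, antisense ones included. Antisense transcripts made up a median of 5.62% of that gene FPKM (quartiles 2.43% and 15.5%), and over 50% of it at 147 sense genes. The sense level used below is therefore the gene FPKM minus all antisense and sense-overlapping lncRNA transcripts of the locus.

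Most antisense transcripts covered an end of their sense gene. Relative to the Ensembl span of the sense gene, 945 (56.4%) overlapped it in part, 440 (26.2%) lay wholly inside it and 292 (17.4%) contained it. The overlap was 2272 bases at the median (quartiles 673 and 8212), with a lowest value of 1 base. Their own genomic spans, introns included, had a median of 8081 bases and reached 472372 bases. Chromosome 1 carried the most of them (164), ahead of chromosomes 3 (150), 11 (128) and 2 (126). A further named gene was overlapped by 164 of them (9.78%), so their reads may also belong to that gene. Coordinates are given as the files hold them, since the genome build is not given in the sources used here, and exons were not analysed here.

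Antisense transcripts were rare RNAs beside their sense genes. Over the 9 libraries their mean FPKM had a median of 0.205 (quartiles 0.102 and 0.390), against 4.84 for the sense level over the same 1677 pairs (quartiles 1.42 and 12.3). Only 163 reached an FPKM of 1 in at least 3 libraries and 55 in every library. Conversely, 775 were above 0 in every library and 1676 in at least 1.

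In 198 of all 1677 pairs (11.8%), which include sense genes at or near 0, the antisense transcript had the higher mean. Among the 1231 pairs in which both partners passed a filter (FPKM at or above 0.1 in no fewer than 3 libraries), the median difference of log2(FPKM + 0.1), antisense minus sense, was -3.96 ± 0.0861 (SD over 9 libraries). It was negative in each library and ran from -4.05 in LOW replicate 1 to -3.76 in HIGH replicate 3, the library nearest to 0. After scaling, the antisense transcript was above the sense gene in 3.49% (CON replicate 3) to 5.28% (HIGH replicate 1) of these 1231 pairs. Transcripts inside their sense gene had the lowest median level (mean FPKM 0.168), those that overlapped it in part 0.207 and those that contained it 0.279, and the sense genes followed the same order (3.69, 5.18 and 6.90 FPKM).

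**Figure D1:**
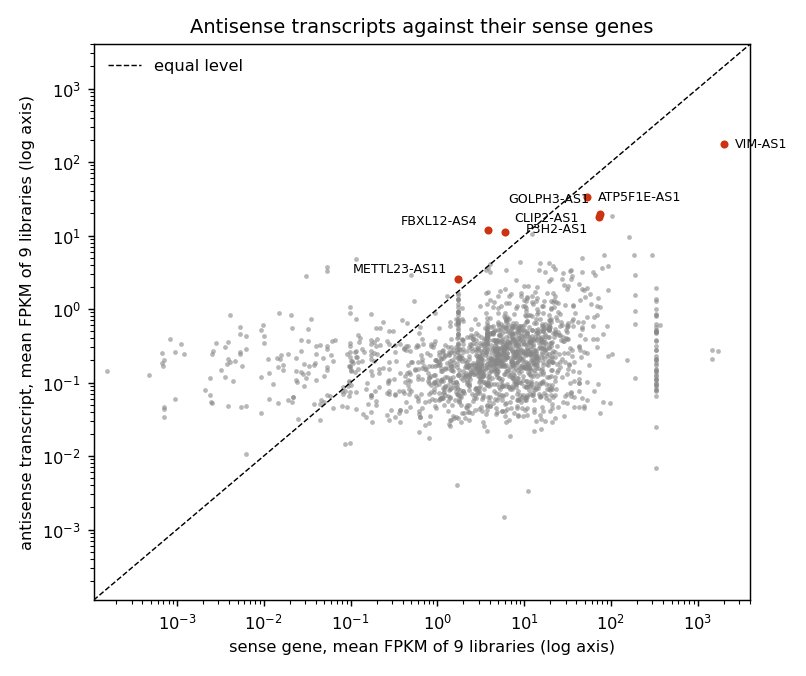
Mean FPKM of each antisense transcript (vertical, log axis) against that of its sense gene (horizontal, log axis) over 9 libraries, 1 point per pair with both means above 0; the dashed line marks equal levels and red points are named. Most points lie below the line, and VIM-AS1 stands above all other antisense transcripts with 173 FPKM; columns of points at 1 horizontal position are several antisense transcripts of 1 sense gene.

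The antisense transcript of VIM, which encodes the intermediate filament protein vimentin, had by far the highest level. VIM-AS1 (13:30747300-30748189, overlapping the start or end of VIM by 662 bases) had FPKM values of 149, 200 and 249 in CON, 163, 213 and 214 in LOW and 68.2, 127 and 178 in HIGH. VIM itself was at 2076, 2235 and 2822 in CON, 1979, 2137 and 2021 in LOW and 1335, 1689 and 1877 in HIGH. VIM-AS1 was thus at 0.0859 of the sense level, and HIGH replicate 1 was the lowest library and CON replicate 3 the highest for both partners. An assembled transcript with no lncRNA class is also filed under VIM: the Ensembl transcript alone had a mean of 1725 of the 2019 FPKM.

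Among other antisense transcripts of high level, ATP5F1E-AS1 stood at 32.9 ± 11.0 FPKM (SD, n = 9) beside ATP5F1E, the epsilon subunit of the mitochondrial ATP synthase, at 53.4 ± 18.3. The Ensembl transcript of ATP5F1E was listed at 0 in these libraries, and its sense level came wholly from assembled transcripts. GOLPH3-AS1, which lies inside the gene of the Golgi vesicle protein GOLPH3 (16:41310338-41311665), was at 19.6 ± 3.77 against 74.3 ± 3.18. P3H2-AS1, inside the gene of a collagen prolyl 3-hydroxylase, was at 17.9 ± 2.64 against 73.0 ± 4.09. Each of these 3 thus lay below its sense gene in mean level.

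FBXL12-AS4, also among the highest, was unlike its sense gene. FBXL12 encodes an F-box protein of ubiquitin ligases and was even over the libraries, between 3.05 and 5.12 FPKM. FBXL12-AS4 (5:12096532-12103720, sharing 115 bases with the gene) had 9.35, 2.70 and 31.7 in CON, 2.49, 4.63 and 11.4 in LOW and 2.70, 21.0 and 20.3 in HIGH. Its lowest and highest CON libraries thus lay far apart, and the 3 groups overlapped throughout.

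FBXL12-AS4 also had the highest ratio to its sense gene, 3.07, among pairs with a sense mean of at least 1 FPKM. CLIP2-AS1, inside the gene of a microtubule linker protein, followed with a ratio of 1.83 (11.0 ± 3.37 against 6.03 ± 1.13 FPKM, SD, n = 9). Its FPKM was above that of CLIP2 in 8 of 9 libraries, HIGH replicate 1 being the exception with 5.37 against 6.63. METTL23-AS11 had 1.51 and CCDC142-AS1 1.16. The latter was at 1.503 ± 0.186 against 1.30 ± 0.169 FPKM (SD, n = 9), a difference about the size of the spread between libraries.

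Most sense genes (932) had 1 antisense transcript, 261 had more and 16 had 5 or more. Among those with the most were METTL23 with 28 and TSPOAP1 with 24. The 28 at METTL23 (11:54046810-54055530) share 2 pairs of start and end and the 24 at TSPOAP1 (11:8822239-8833525) share 5. How reads were divided among transcripts of the same span was not tested.

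At METTL23, which encodes a methyltransferase, the antisense transcripts together had more FPKM than the sense gene. Its 28 antisense transcripts summed to 21.3, 29.9 and 24.0 FPKM in CON, 20.7, 27.8 and 19.3 in LOW and 24.3, 19.8 and 23.0 in HIGH. The sense level was 1.73, 1.30 and 1.46 in CON, 1.62, 1.46 and 1.73 in LOW and 1.82, 2.12 and 2.26 in HIGH. In every library the sum was thus several times the sense level. The groups overlapped for the sum, while the HIGH libraries lay above all others for the sense level as deposited. After scaling, HIGH replicate 1 lay below LOW replicate 3 for the sense level, so HIGH and LOW overlapped there too. Of the mean METTL23 sense level of 1.72 FPKM only 0.539 came from Ensembl transcripts. The rest came from assembled ones, whose strand is not given. The coefficient of variation over the 9 libraries was 15.5% for the sum and 71.9% at the median of the single transcripts. METTL23-AS11, for example, ran from 0.170 to 7.41 FPKM while the sum kept within 19.3 to 29.9.

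TSPOAP1, the gene of a protein that binds the mitochondrial translocator protein TSPO, had a sum of 11.0 ± 1.82 against 3.69 ± 0.589 FPKM. Of this sense level 0.881 came from the Ensembl transcript and the rest from assembled ones. Sum and sense level of TSPOAP1 both peaked in CON replicate 3, at 15.0 and 4.73.

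**Figure D2:**
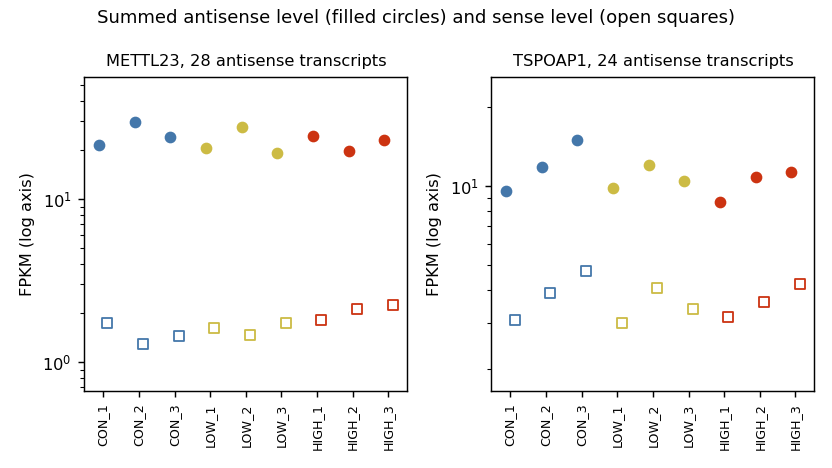
Summed FPKM of all antisense transcripts (filled circles) and sense level (open squares) of METTL23 and TSPOAP1, by library (log axes; blue CON, yellow LOW, red HIGH). At METTL23 and TSPOAP1 the antisense sum is above the sense level in all 9 libraries.

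Whether glucose changed antisense transcripts was asked in the 3 pairs of groups with limma over all 39434 transcripts tested, where a transcript was called if its adjusted p-value was below 0.05 and its log2 fold change beyond 1 in either direction. Of the 1677 members, 1331 passed the filter on low values and were tested and 346 did not. No antisense transcript was called by limma in any of the comparisons. Of all transcripts, 0.0279% were called between CON and LOW, 0.0279% between CON and HIGH and 0.0355% between LOW and HIGH, the order in which counts are given below. The lowest adjusted p-values were 0.0722, 0.224 and 0.138 by limma. At an unadjusted p-value under 0.05, limma counted 51, 87 and 88 of the 1331, or 3.83%, 6.54% and 6.61%, near the 2.74%, 6.05% and 6.93% of all transcripts. DESeq2 on the deposited transcript counts called 27 of 1294, 31 of 1243 and 41 of 1294, where 1.61%, 1.71% and 2.31% of all transcripts were called, but those counts are FPKM multiplied by the whole genomic length from start to end of a transcript and are not numbers of reads.

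None of the 1081 sense genes tested was called by limma either, where 0.00826% of 24204 genes were called in each of the 3 comparisons. Unadjusted p-values were under 0.05 for 7, 97 and 104 of them, against 1.83%, 6.8% and 7.72% of all genes. These counts depended on single libraries. Between CON and LOW the 7 became 43 without CON replicate 1, 11 without CON replicate 2 and 23 without CON replicate 3. Between CON and HIGH the 97 became 269, 52 and 53 without CON replicates 1, 2 and 3, and 34, 44 and 182 without HIGH replicates 1, 2 and 3. Between LOW and HIGH the 104 became 57, 62 and 48 without LOW replicates 1, 2 and 3, 39, 53 and 210 without HIGH replicates 1, 2 and 3, and 167 without CON replicate 3. Of the antisense counts, the 87 became 142 without CON replicate 1. The log2 ratio of antisense to sense level was called for 0 of 1231 pairs in each comparison by limma, as for 0% of all 2441 lncRNA and host pairs. Unadjusted, 48, 79 and 84 ratios had a p-value under 0.05, against 3.56%, 5.08% and 6.06% of all pairs.

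The median of log2(FPKM + 0.1) over the 1331 transcripts was -1.56 ± 0.136 in CON, -1.45 ± 0.0642 in LOW and -1.35 ± 0.0946 in HIGH (SD, n = 3 each). Over all 39434 transcripts the means were -0.66 in CON, -0.59 in LOW and -0.43 in HIGH, in the same order. For the antisense transcripts the highest CON library (-1.46) lay just below the lowest HIGH library (-1.43), and LOW overlapped both. CON replicate 3 was the lowest library in both, at -1.71 and -0.94. The range of the 3 group means of the antisense level was 0.212, and 0.135 without that library. In CON versus HIGH the median log2 fold change of the antisense transcripts was -0.14, beside -0.11 for all transcripts.

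Among antisense transcripts with an unadjusted p-value under 0.05 in CON versus HIGH, 68 were higher in HIGH and 19 in CON. Over all transcripts 3.71% were higher in HIGH and 2.34% in CON by the same measure. Between LOW and HIGH 62 were higher in HIGH (background 4.45%) and 26 in LOW (2.48%), and between CON and LOW 33 were higher in LOW (1.39%) and 18 in CON (1.34%). After scaling, groups did not overlap for 120 antisense transcripts between CON and LOW (9.02%), 160 between CON and HIGH (12%) and 182 between LOW and HIGH (13.7%). The shares over all transcripts were 7.12%, 9.42% and 16.3%.

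The transcripts with the smallest p-values among those without overlap were all low, and several were listed at 0 in a whole group. MAGI2-AS1 (4:42632478-42689935), antisense to the gene of a scaffold protein of cell junctions, had 0.435, 0.401 and 0.626 FPKM in CON, 0 in all 3 LOW libraries and 0.305, 0.351 and 0.275 in HIGH. All 6 libraries outside LOW were thus above all LOW libraries. The adjusted p-value by limma was 0.0722 against CON and 0.138 against HIGH. MAGI2 itself was at 0.527 to 0.623 FPKM in CON and 0.270 to 0.449 in LOW, which did not overlap, and its HIGH libraries overlapped both. Its adjusted p-values by limma were 1.00 in CON versus LOW and 0.750 in LOW versus HIGH.

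TBX18-AS1 (8:51779559-51783705), antisense to a T-box transcription factor, was listed at 0 in a different group. It had 0.307, 0.239 and 0.290 FPKM in CON, 0.263, 0.252 and 0.395 in LOW and 0 in all 3 HIGH libraries. HIGH was thus separate from both other groups, with adjusted p-values by limma of 0.224 against CON and 0.138 against LOW. TBX18 was at 5.29 to 8.31 FPKM over the 9 libraries and its lowest HIGH library, 7.84, was below the highest CON library. After scaling HIGH lay above both other groups for TBX18 too, with adjusted p-values by limma of 0.656 and 0.790.

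ST3GAL1-AS1 (9:20855019-20926552), at the gene of a sialyltransferase that caps O-linked sugars, was at 0, 0 and 0.143 FPKM in CON, 0.338, 0.431 and 0.357 in LOW and 0.520, 0.635 and 0.337 in HIGH. CON was below both glucose groups, which overlapped each other. The log2 fold change in CON versus HIGH was -2.12 (SE 0.42), with an adjusted p-value by limma of 0.431. COG6-AS1 (10:23004999-23029266), at a gene of the Golgi tethering complex, was listed at 0 in all CON and LOW libraries and had 0.357, 0.574 and 0.132 in HIGH. Its adjusted p-value by limma was 0.431 in CON versus HIGH. COG6-AS1 passed the filter on low values only through its HIGH libraries, so its separation and p-value are a description and no support. COG6 varied only between 17.6 and 21.6 FPKM.

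FUT8-AS1 (7:74415161-74473183) is antisense to the gene of the enzyme that adds core fucose to N-linked sugars. It had 0.0702, 0 and 0 FPKM in CON, 0.473, 0.555 and 0.325 in LOW and 0.146, 0 and 0.146 in HIGH. LOW was above both other groups. The log2 fold change in CON versus LOW was -2.25 (SE 0.46, adjusted p-value by limma 0.675). NQO2-AS1, at the gene of a quinone reductase, was higher in CON (0.604, 0.498 and 0.392 FPKM) than in LOW (0.118, 0 and 0.200), and its HIGH libraries overlapped those of CON.

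In CON versus HIGH, XPNPEP2-AS1, at the gene of a membrane aminopeptidase, was lower in HIGH. It had 0.350, 0.260 and 0.197 FPKM in CON, 0.151, 0.114 and 0.144 in LOW and 0, 0 and 0.0692 in HIGH, and the 3 groups were separate. AIF1-AS1, which contains a gene known from macrophages, had 0.237, 0.219 and 0.414 FPKM in LOW and 0 in all HIGH libraries. IPO8-AS3, at an importin gene, was listed at 0 in all LOW libraries and had 0.190, 0.275 and 0.522 in HIGH. An FPKM of 0 in such files may be a failed estimate as well as an absent RNA.

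Complete separation by presence was rare in both directions. At 0.1 FPKM or more in every HIGH library and 0 in every LOW library were 9 of 1331 antisense transcripts, or 0.676%, against 0.188% of all transcripts. For LOW over HIGH it was 3, or 0.225%, against 0.104%. Between CON and HIGH there were 4 in each direction (0.301%), against 0.114% and 0.109%, and between CON and LOW 1 higher in CON and 2 higher in LOW, against 0.134% and 0.0659%. These shares are a description, since a transcript such as COG6-AS1 could pass the filter of 0.1 FPKM in 3 libraries through its high group alone. Antisense transcripts also had a lower median level than all transcripts. The part of low level in these shares was not tested.

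ADAMTS9-AS1, at the gene of a secreted metalloprotease (19:36600954-36786453), was also at 0 in all 3 LOW libraries. It had 0.139, 0.587 and 0.0612 FPKM in CON and 0.0444, 0.167 and 0 in HIGH. The CON libraries differed widely among themselves, and the adjusted p-value by limma was 1.00 in CON versus LOW.

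**Figure D3:**
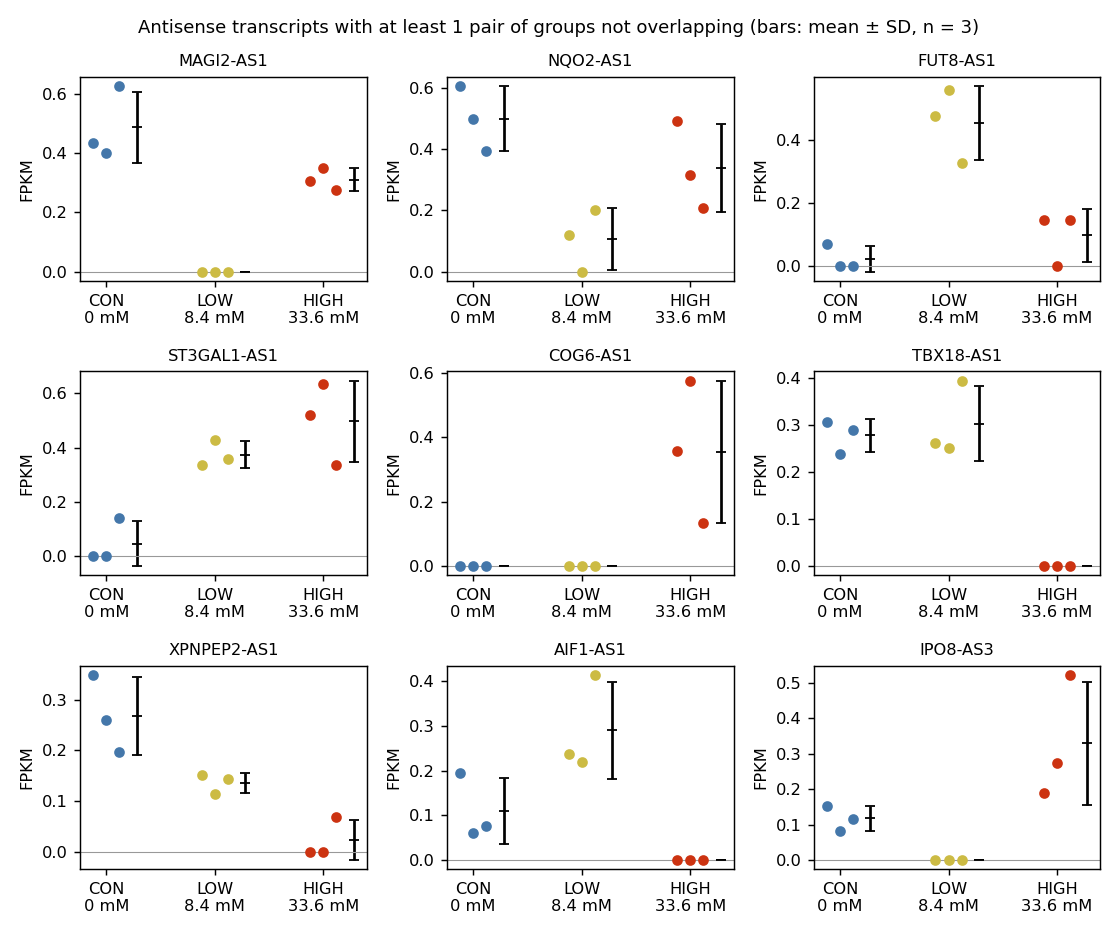
FPKM of 9 antisense transcripts (vertical axes, linear) in the 3 libraries of CON (0 mM glucose), LOW (8.4 mM) and HIGH (33.6 mM); points are libraries and bars the mean ± SD with n = 3. MAGI2-AS1 and IPO8-AS3 are at 0 in all LOW libraries, TBX18-AS1 and AIF1-AS1 in all HIGH libraries and COG6-AS1 in all CON and LOW libraries.

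Co-variation of each antisense transcript with its sense gene was measured by Pearson r of log2(FPKM + 0.1) over the 9 libraries, with exact permutation p-values adjusted over 2441 antisense and sense-overlapping pairs. On the whole it was weak. The median r of the 1231 antisense pairs was 0.12 (quartiles -0.21 and 0.43), with 735 pairs above 0. The points of a pair share library and scaling, and pairs with a common sense gene are not independent. The 1210 sense-overlapping lncRNAs, measured the same way, had a median of 0.25. With the gene FPKM as deposited, which contains the antisense transcript, the median over the same 1231 antisense pairs was 0.34 and 929 were above 0.

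The median r was higher where the antisense transcript had a higher level. It was 0.094 for the 691 pairs with an antisense mean under 0.3 FPKM, 0.12 for the 414 between 0.3 and 1, and 0.29 for the 126 at 1 or more. Over the 51 pairs with both partners at 1 or more in every library it was 0.39. Over all levels the medians differed little by position. They were 0.11 inside the sense gene, 0.12 for partial overlap and 0.14 where the sense gene was contained. At an antisense mean of 1 FPKM or more the order was reversed, with 0.39 (13 pairs), 0.29 (81) and 0.19 (32). After subtraction of the group means from every value the median r of all pairs was 0.11, about that of the libraries as they stood.

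**Figure D4:**
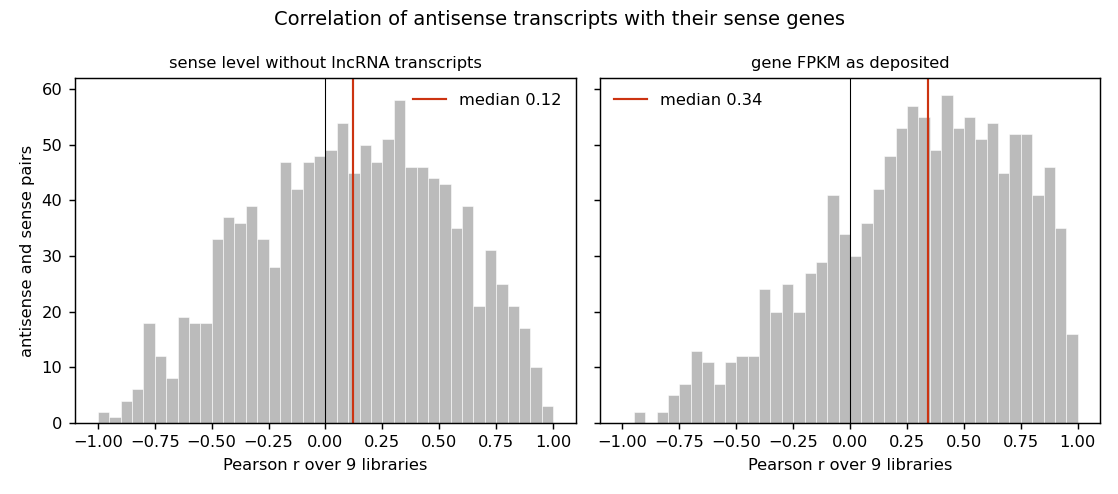
Numbers of antisense and sense pairs (vertical) by Pearson r over 9 libraries (horizontal) for 1231 pairs, with the sense level without lncRNA transcripts at the left and the gene FPKM as deposited at the right; red lines are medians. The left distribution is centred near 0.12 and the right, in which the antisense transcript is part of the gene value, near 0.34.

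Of the 1231 pairs 35 passed at an adjusted permutation p-value under 0.05, or 2.84%, against 7.09% of all 2441 pairs. In 27 of them r was positive and in 8 negative, and each had its own sense gene. With these 35 included, 174 pairs had an unadjusted permutation p-value under 0.05, 126 positive (10.2%, against 17.0% of all pairs) and 48 negative (3.90%, against 4.42%). All 35 kept their sign when the group means were subtracted, when the outermost pair of libraries was left out and when library GC content was taken out of both partners. The 35 had been picked for their r in these same libraries, so a kept sign is no support. Their lowest absolute r was 0.750 as they stood, and 0.574, 0.551 and 0.656 after these changes in turn.

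CON replicate 3 was the lowest or the highest library for both partners in 22 of the 35 pairs, against 17.1% of all tested pairs. That library was also the lowest in median level over all transcripts. Without it 8 pairs passed. Without CON replicate 1 16 pairs passed, 15 without LOW replicate 2, 18 without HIGH replicate 1 and 20 without HIGH replicate 2. The part of such shared library differences in the correlations was not tested.

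Positive pairs included VIM and GOLPH3 from the highest antisense transcripts. For VIM-AS1, r was 0.94 (adjusted exact permutation p 0.00480; rho 0.93, exact permutation p 0.000750) and 0.81 without the 2 libraries farthest from the median. With the Ensembl transcript of VIM alone it was 0.92. VIM-AS1 differed by a log2 fold change of 0.70 (SE 0.36) in CON versus HIGH and VIM by 0.51 (SE 0.25), with adjusted p-values by limma of 0.746 and 0.656.

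GOLPH3-AS1 had an r of 0.94 (adjusted exact permutation p 0.0170; rho 0.83, exact permutation p 0.00827). It ran from 13.2 FPKM in HIGH replicate 1 to 24.6 in HIGH replicate 3, while GOLPH3 kept within 68.1 to 79.0. The antisense transcript thus varied over a wider range, relative to its level, than the sense gene. HM13-AS2, at the gene of the signal peptide peptidase, and HHIPL1-AS1, at a gene related to hedgehog interacting protein, had r of 0.90 each (adjusted exact permutation p 0.0260 and 0.0231). HM13-AS2 was at 4.93, 2.75 and 2.23 FPKM in CON and HM13 at 45.2, 32.3 and 22.4, with the same order of the 3 libraries.

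ZBTB20-AS1, at the gene of a zinc finger repressor, was among the 5 highest r of the well measured pairs with 0.93, yet its adjusted exact permutation p was 0.177. Its r rested on CON replicate 3, the lowest library for both partners (1.14 and 11.7 FPKM), and fell to 0.23 without it. The other positive pairs that passed had r between 0.75 (BLVRB-AS1) and 0.96 (STAP1-AS1), and these were singled out after their values were seen. COL6A6-AS1, at a collagen VI gene, had 0.96. STAP1-AS1 had a level close to its sense gene (0.873 and 0.950 FPKM), but nearly the whole of that sense level came from assembled transcripts, the Ensembl transcript having a mean of 0.00312.

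Negative pairs that passed were fewer. WBP4-AS1 (10:11626152-11658229), which contains 21717 bases of the gene of a spliceosome-associated WW-domain protein, had 6.07, 2.34 and 1.01 FPKM in CON, 2.51, 1.53 and 1.58 in LOW and 8.44, 4.36 and 2.31 in HIGH. WBP4 had 14.7, 15.5 and 17.3 in CON, 14.9, 14.4 and 14.8 in LOW and 13.1, 13.9 and 13.5 in HIGH. The libraries with most antisense RNA, HIGH replicate 1 and CON replicate 1, had less WBP4 than CON replicate 3, which had least antisense RNA. The r was -0.93 (adjusted exact permutation p 0.0118; rho -0.93, exact permutation p 0.000750) with the sense level and 0.49 with the deposited gene FPKM. How reads under both transcripts were divided between them was not tested.

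GSPT2-AS1 and HNRNPDL-AS1 were singled out after their values were seen, as the lowest r of all pairs. GSPT2-AS1 (X:50337823-50587487) contains the whole gene of a translation termination factor. It had 1.24, 0.382 and 0.0352 FPKM in CON, 0.404, 0.2998 and 0.416 in LOW and 1.23, 0.686 and 0.444 in HIGH, while GSPT2 was lowest in HIGH replicate 1 (4.58) and highest in CON replicate 3 (8.68). The r was -0.97 (adjusted exact permutation p 0.00673; rho -0.95, exact permutation p 0.000353). With the gene FPKM as deposited r was -0.94.

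HNRNPDL encodes a nuclear RNA-binding protein, and its antisense transcript (6:96833404-96834873) shares 244 bases with it and also overlaps the neighbouring gene ENOPH1. HNRNPDL-AS1 had 2.54, 0.788 and 0.326 FPKM in CON, 0.801, 0.594 and 0.519 in LOW and 1.95, 1.38 and 1.01 in HIGH. HNRNPDL had 26.2, 40.5 and 64.3 in CON, 31.9, 45.2 and 41.7 in LOW and 19.6, 28.7 and 35.4 in HIGH. Within CON the library with most antisense RNA had least HNRNPDL and the reverse. The r was -0.96 (adjusted exact permutation p 0.00925; rho -0.95, exact permutation p 0.000353).

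The 5 others were TRIM52-AS2 (r -0.88), TET1-AS1 (-0.85), NEBL-AS1 (-0.85), PLCXD2-AS1 (-0.85) and RNF13-AS1 (-0.80), also named after their values were seen. TET1, an enzyme that oxidises methylated cytosine, was lowest (1.02 FPKM) in CON replicate 3, where its antisense transcript was highest (0.966). For NEBL-AS1 the sign depended on what counts as sense RNA, since r was 0.58 with the Ensembl transcripts of NEBL alone. Among the positive pairs TRPC1-AS1 dropped from 0.91 to 0.16 by the same change. The remaining lowest r of well measured pairs were CDPF1-AS1 with -0.78, FAM129A-AS1 with -0.67, VDAC1-AS1 with -0.50 and ANKRD13B-AS2 with -0.42, none of which passed (adjusted exact permutation p from 0.112 to 0.568).

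**Figure D5:**
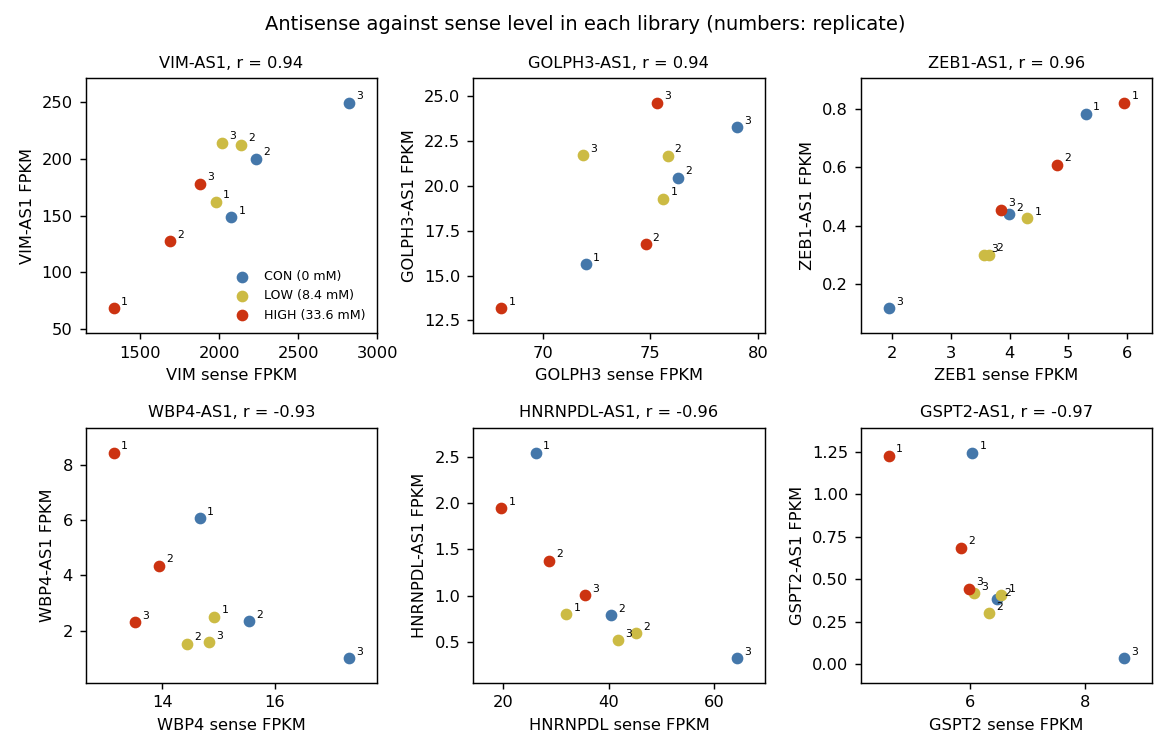
FPKM of the antisense transcript (vertical) against the sense level (horizontal) in each of the 9 libraries for 3 positive and 3 negative pairs; colours are glucose groups and numbers replicates. CON replicate 3 lies at an end of the trend in 5 of the panels. HIGH lies below all other libraries in the sense level of VIM and WBP4. It lies above all LOW libraries in ZEB1-AS1, GSPT2-AS1 and HNRNPDL-AS1. The r, taken on log2 values after scaling, runs from 0.96 for ZEB1-AS1 to -0.97 for GSPT2-AS1.

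In 4 lists of genes with known roles in the follicle, cell death, glucose use and cell identity, 16 antisense transcripts lay at 13 sense genes, of which 15 were tested and 0 called by limma. Only TBX18-AS1 had an unadjusted p-value under 0.05, in both comparisons with HIGH. The examples below with an FPKM under 1 were picked after their values were seen. Of the 16, only PFKP-AS1 and IRX5-AS1, reached an FPKM of 1 in at least 3 libraries.

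Of 40 granulosa and steroid genes, NR5A1 and RUNX1 had antisense transcripts. NR5A1 encodes steroidogenic factor 1, and NR5A1-AS1 was above 0 in 4 of 9 libraries, with at most 1.54 FPKM. RUNX1, a transcription factor that rises at ovulation, had a pair of antisense transcripts at 0.146 and 0.249 FPKM, with r of 0.69 and 0.55 (adjusted exact permutation p 0.190 and 0.404).

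Of 28 apoptosis and p53 genes, 5 had 1 antisense transcript each: BCL2, BCL2L11 (BIM), FAS, CREB1 and SESN1. Their mean FPKM lay between 0.103 (CREB1-AS1) and 0.549 (FAS-AS1) and their median r was -0.34. SESN1-AS1, at a p53 target that restrains mTORC1, had the lowest r of them, -0.79 (adjusted exact permutation p 0.1005).

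Of 34 glucose and energy genes, PFKP and PRKAA1 had 1 each. PFKP-AS1, at the gene of a phosphofructokinase of glycolysis (13:44317942-44324475), was even over the groups, with 1.06, 1.10 and 1.27 FPKM in CON, 1.25, 1.04 and 1.00 in LOW and 0.936, 1.10 and 1.21 in HIGH. PFKP had 2.48, 2.98 and 2.86 in CON, 3.00, 2.54 and 2.28 in LOW and 5.32, 3.97 and 2.59 in HIGH, and its r with PFKP-AS1 was -0.28. PRKAA1-AS1, at the gene of the AMPK catalytic subunit, had an r of 0.89 (adjusted exact permutation p 0.0743).

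Of the homeobox and developmental transcription factors, IRX5 had 3 antisense transcripts and SNAI2, TBX18 and ZEB1 had 1 each. ZEB1 and SNAI2 are repressors known from the change of epithelial to mesenchymal state. ZEB1-AS1 (13:33006147-33072618) overlaps ZEB1 by 44266 bases. It had 0.784, 0.438 and 0.115 FPKM in CON, 0.425, 0.2995 and 0.298 in LOW and 0.822, 0.610 and 0.454 in HIGH. ZEB1 had 5.29, 3.99 and 1.95 in CON, 4.30, 3.64 and 3.56 in LOW and 5.95, 4.81 and 3.86 in HIGH. Both were lowest in CON replicate 3 and highest in HIGH replicate 1. The r of 0.96 had the lowest adjusted exact permutation p of all 1231 antisense pairs, 0.00428 (rho 0.97, exact permutation p 0.000165), and stayed at 0.91 without the 2 libraries farthest from the median.

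IRX5-AS1, which contains IRX5 with 1293 bases of overlap, had 0.666, 0.799 and 1.84 FPKM in CON, 1.02, 1.10 and 1.22 in LOW and 0.510, 1.22 and 1.55 in HIGH, and the groups overlapped. Its r of 0.48 did not pass (adjusted exact permutation p 0.489). SNAI2-AS1 was at 0.220 ± 0.114 FPKM (SD, n = 9) beside 13.5 ± 1.30 for SNAI2.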

How the data were processed

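Members, gene lists and tests were chosen with earlier results of these data known. RNA was sequenced in 9 libraries, 3 per glucose group. The authors depleted rRNA, aligned the reads, assembled transcripts, removed those predicted to be coding and deposited FPKM for transcripts and for genes; the submitters' processing notes name TopHat, TopHat2, HISAT2, STAR 2.5.1b and HTSeq 0.6.0, with no role given. The authors also deposited estimated counts (expected counts) per transcript. Apart from Ensembl genes without a symbol, those examined lie within 3% of FPKM times genomic span times 1 factor per library. Ensembl genes without a symbol, which hold no member, had a median factor of 5.36 to 9.14 by library, against 48.0 to 71.3. The counts were rounded and used for depth and for DESeq2 (1.42.0) only. 0 columns lacked a sample.

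Members are assembled transcripts with a name ending in -AS and a number. The design named the host gene FPKM as sense level; since it contains the antisense transcripts, all lncRNA transcripts of the locus were subtracted, and the deposited value is an added alternative. Libraries were scaled to a common median log2 FPKM, taken over features at 1 or above throughout; features of Ensembl genes without a symbol, which hold no member, were scaled apart. A feature was tested if its FPKM reached 0.1 in 3 libraries or more, transcripts also if they spanned 300 bases. limma (3.58.1, R 4.3.3) was fitted with a trend on log2(FPKM + 0.1), 3 groups in 1 model, with Benjamini-Hochberg adjustment over all features; fold changes are on that scale, which understates low genes. Positive values mean higher in the group named before "versus". Printed levels are FPKM as deposited. Pearson r and Spearman rho had two-sided exact tests over all 362880 orders of 9 libraries (Python 3.11.15, numpy 2.4.6, pandas 2.3.3), adjusted over 2441 pairs. Library GC content, an alternative covariate, came from the study's summary of its sequencing runs. No p-value is given for medians over members. The limma and correlation steps were tested on simulated data. In the limma simulation the changed transcripts and genes had a mean FPKM of 1 or more. It cannot show how well changes in the many antisense transcripts below that level would be found.

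Named are, by a rule written with the design, in each comparison and direction the 2 transcripts of smallest p among groups that do not overlap, the 6 highest means, the 5 highest and 5 lowest r among pairs at FPKM 1 or above throughout, the 4 highest ratios, the 3 sense genes with most antisense transcripts, list members and ADAMTS9-AS1. Others are marked in the text. Fold-change columns of the authors' own comparisons were not used, nor was the gene count table. Some results of this rule are not reported here. No sequences are given, as no genome was used here.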

Additional observations from a re-analysis of the deposited data

How the results depend on the processing

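Of 165 recounts of calls (antisense transcripts, sense genes and ratios in 3 comparisons), 154 gave 0. DESeq2 on the deposited transcript counts called 27 antisense transcripts between CON and LOW, 31 between CON and HIGH and 41 between LOW and HIGH, and of all transcripts 622 of 38601, 633 of 37071 and 890 of 38601. With library GC content as a covariate, 16 antisense transcripts and 55 sense genes were called in CON versus HIGH (1469 of all 39434 transcripts and 2425 of all 24204 genes), and with the replicate block added to it 0. With each library left out in turn, calls ranged from 0 to 1 for sense genes in all 3 comparisons (1 without CON replicate 1 in both comparisons with CON, and 1 without HIGH replicate 1 in both with HIGH). They ranged from 0 to 1 for ratios in CON versus LOW and CON versus HIGH (1 without CON replicate 3).

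The 35 correlations that passed became 10 of 51 pairs at FPKM of 1 or more in every library and 15 by Spearman. With 1 library left out they became 8 to 31. CON replicates 1 and 3, LOW replicate 2 and HIGH replicates 1 and 2 moved the number by over 1.5 times. With the gene FPKM as deposited 215 passed, of 1331 pairs and not of the 1231. The median r of 0.12 became 0.39 at FPKM of 1. It became 0.38 over those 1331 pairs with the deposited gene FPKM, and 0.34 over the 1231. The level difference of -3.96 became -2.34, and the range of the group medians of antisense level of 0.21 became 0.061, with a pseudocount of 1, which compresses low values; with 1 library left out the range lay between 0.135 (without CON replicate 3) and 0.263. The deposited gene FPKM as sense level was chosen as an alternative after seeing the data. The causes of the other shifts were not tested.

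The labels give no meaning to the replicate numbers, and not all same-numbered libraries deviated together. The correlation of deviations ran from 0.068 to 0.24 among replicates 1 and among replicates 3, from -0.0079 to 0.0034 among replicates 2, and was negative (-0.25 to -0.059) for each replicate 1 with a replicate 3 of another group. With the replicate block limma called 0 antisense transcripts, sense genes and ratios in each comparison, sense genes with an unadjusted p-value under 0.05 numbered 15, 205 and 211, and the median r of deviations from replicate number means was 0.11. The number of correlations passing was not computed for deviations, since permutations within groups or numbers are too few to pass the adjustment. Values near FPKM 0.1 rest on few fragments.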
